A study of Homo sapiens with 10 samples.

Results

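CDK inhibitors, the retinoblastoma gene RB1, the lamina gene LMNB1 and the cyclin gene CCND1 were followed in MRC5 fibroblasts, as transcripts that mark arrest and senescence in cultured cells. The members were chosen by name: 10 genes were listed, 9 had a row in the table of 14054 genes, and all 9 passed the filter on low counts. The tenth, CDKN2A, which encodes p16INK4a and p14ARF, was not analysed here. MRC5 is a finite-lifespan fibroblast line from normal fetal lung, and all libraries come from this 1 line. Of the 10 libraries, 5 came from MRC5 kept in the supernatant of A549 cells that had been stretched (stretch medium: libraries 2, 4, 6, 8 and 10). The other 5 were kept in the supernatant of A549 cells that had not (static medium: libraries 1, 3, 5, 7 and 9). A549, the source of both media, was derived from a human lung adenocarcinoma and resembles alveolar epithelium. No stretching of the fibroblasts themselves is described, and their passage number is not given in the sources used here. Labels disagree on the length of exposure, giving 24 hours with the samples and 6 hours with the series. Nothing in them shows whether replicate libraries are separate cultures, and a p-value therefore reflects only library-to-library spread, which may be technical.

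Progress from G1 to S phase is set by D-type cyclins, which activate CDK4 and CDK6 to phosphorylate the RB protein and release E2F transcription factors. The INK4 proteins (CDKN2A to CDKN2D) bind CDK4 and CDK6, while the CIP/KIP proteins (CDKN1A to CDKN1C) bind cyclin-CDK complexes more broadly. In senescent fibroblasts, p21 (CDKN1A) and p16 are known to accumulate and lamin B1 (LMNB1) to be lost. The comparison addresses how the fibroblasts' arrest genes stood after medium from stretched epithelial cells.

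CDKN2B shares stretches of sequence with another gene, which bears on what its count can hold. Of the 4051 distinct 31-base words in its GENCODE transcripts, 1.93% occur in some other gene, and for the other 8 members analysed none does. Whether the targeted amplicon of CDKN2B touches a shared stretch is not stated by the labels, so its level is uncertain to that extent.

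No member separated the groups. In edgeR's quasi-likelihood test, 0 of the 9 members passed an adjusted p of 0.05, as did 0.0% of the 10968 genes tested. At an unadjusted p under 0.05 there was 1 member, CDKN2B, on the lower side, against 16.4% of all genes (8.08% higher and 8.37% lower in stretch medium). DESeq2 and limma-voom called 0 of the 9 as well. Over all genes, DESeq2 called 275 (2.84% of the 9690 genes to which it gave an adjusted p) and limma-voom 1 (0.00912% of 10968). The fitted change was below 0 for 7 members and above 0 for 2, CCND1 and CDKN1A. The median log2 fold change of the 9 was -0.22, against 0.00034 over all genes. Library values of the groups overlapped for each of the 9, while 3.72% of all genes had groups that did not overlap. Because counts in this assay come from short amplified targets, levels are not compared between genes. Levels are given in CPM, that is, reads of a gene relative to the TMM-scaled size of its library.

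**Figure D1:**
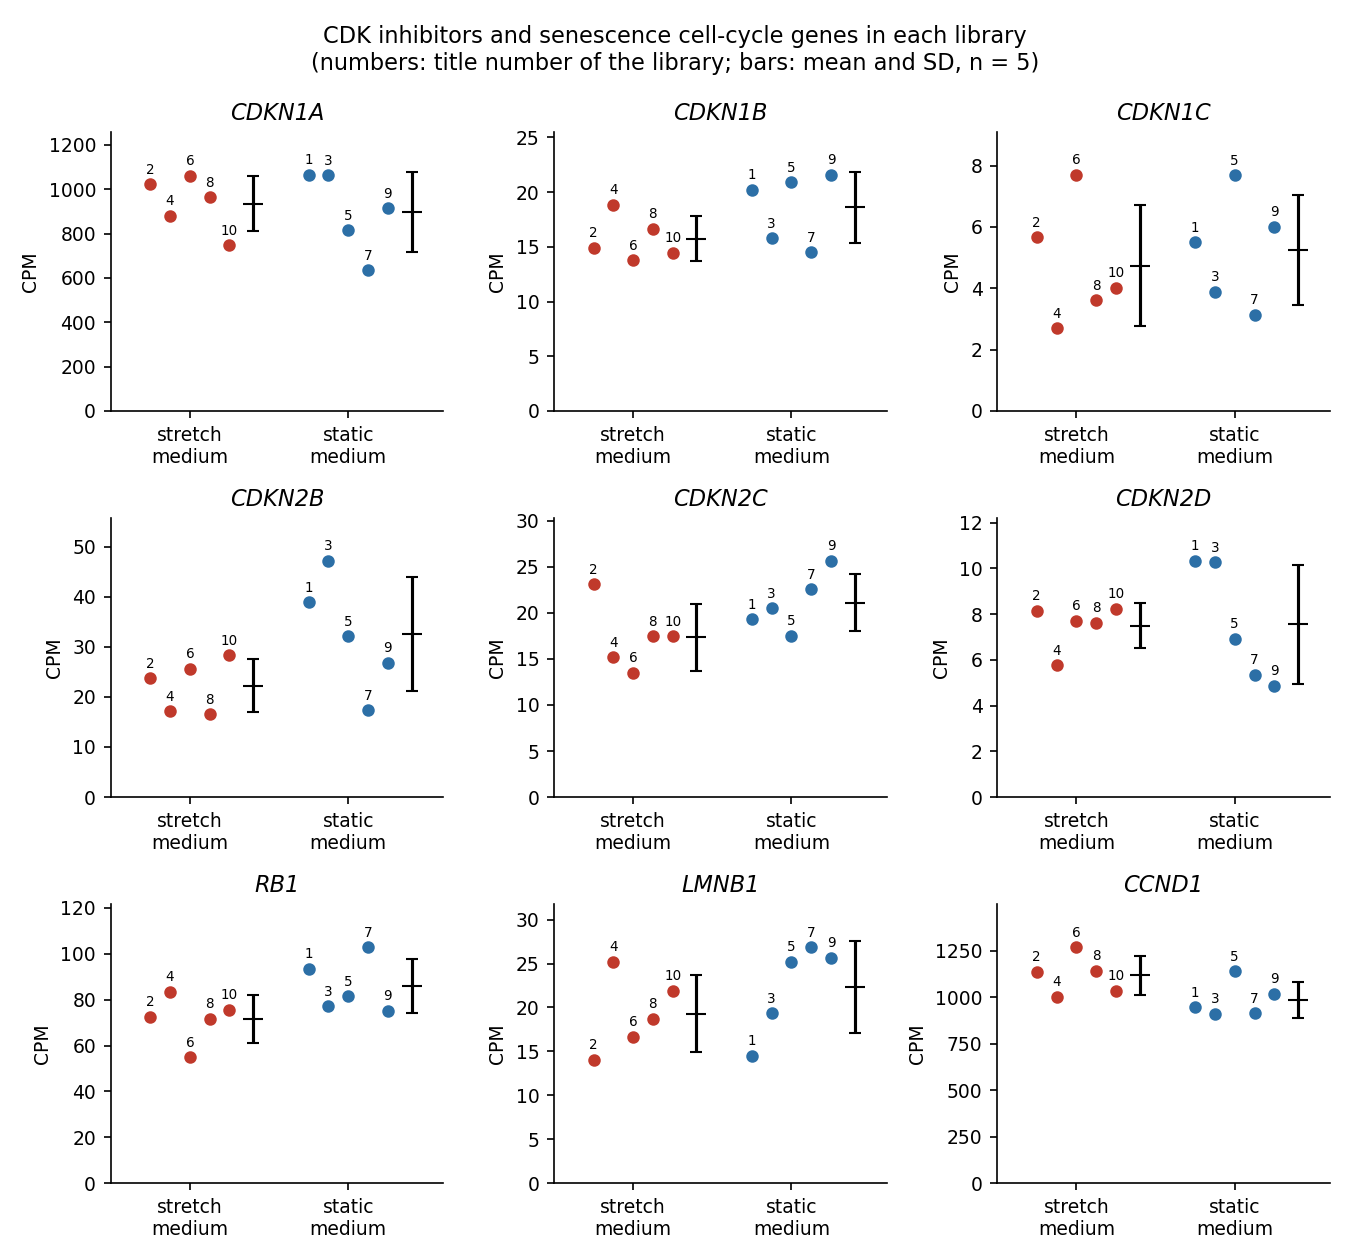
Level of each gene in CPM in each library, in stretch medium (red) and static medium (blue), numbered as in the sample titles. Bars beside the points give the mean and SD over 5 libraries, and in every panel the groups overlap.

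CDKN1A, the p53-responsive inhibitor p21 (chromosome 6, 36676460 to 36687339), differed between media by less than the spread between libraries. It was at 1024, 881, 1061, 964 and 749 CPM in stretch libraries 2, 4, 6, 8 and 10, and at 1066, 1063, 817, 636 and 915 CPM in static libraries 1, 3, 5, 7 and 9. The lowest and the highest value were both in static medium, so the stretch libraries lay inside the static range. The log2 fold change was 0.058 ± 0.14 (SE), with a 95% interval that corresponds to 0.850 to 1.27 times the static level (edgeR, adjusted p = 0.871). Without static 7, the lowest library, the estimate was -0.044.

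CDKN1B, the inhibitor p27 of cyclin E-CDK2 (chromosome 12, 12715058 to 12722371), averaged 15.7 ± 2.05 CPM in stretch medium and 18.6 ± 3.23 CPM in static medium (SD, n = 5 each). Stretch libraries were at 14.9, 18.9, 13.8, 16.7 and 14.5 CPM, and static libraries at 20.2, 15.8, 20.9, 14.5 and 21.6 CPM. All 5 stretch values lay below the static median of 20.2 CPM, but static 3 and static 7 lay among them. The fitted log2 change was -0.24 (interval -0.56 to 0.094, edgeR adjusted p = 0.470).

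CDKN1C, the imprinted inhibitor p57 (chromosome 11, 2883213 to 2885773), was counted least, with 14 to 56 reads a library. It was at 5.66, 2.69, 7.70, 3.62 and 4.02 CPM in stretch medium and at 5.49, 3.89, 7.69, 3.13 and 6.01 CPM in static medium, a like scatter in both. Its highest library exceeded its lowest 2.86 times, the widest range of the 9 members. The interval of its log2 fold change, -0.75 to 0.51, spans differences in either direction (edgeR, adjusted p = 0.877).

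CDKN2B, the inhibitor p15 that TGF-beta is known to induce in epithelial cells (chromosome 9, 22002903 to 22009363), had the largest fitted difference of the members. It was at 23.8, 17.1, 25.6, 16.5 and 28.3 CPM in stretch libraries 2, 4, 6, 8 and 10. In static libraries 1, 3, 5, 7 and 9 it was at 38.9, 47.2, 32.1, 17.4 and 26.8 CPM. Static 1, 3 and 5 lay above every stretch library, and static 7 and 9 inside the stretch range. Means were 22.3 ± 5.23 CPM in stretch medium and 32.5 ± 11.4 CPM in static medium (SD, n = 5 each), so the spread was wider in static medium. The log2 fold change of -0.55 ± 0.23 had an interval of -1.03 to -0.064, an unadjusted p of 0.0287 and an adjusted p of 0.256 in edgeR. The adjusted p was 0.175 in DESeq2 and 0.317 in limma-voom. With a library left out the estimate ran from -0.71 to -0.37.

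CDKN1A and CDKN2B are both known as genes whose start-proximal GC boxes bind SP1 and pass on TGF-beta signals in epithelial cells, and their windows are shown together for that reason. No test of a difference between their changes was made. RefSeq promoter windows were matched by symbol for 8 of the 10 named genes. The windows below run from 140 to 31 bases before the RefSeq start site, on GRCh38.p14, at chr6:36678574-36678683 (plus strand) and chr9:22009336-22009445 (minus strand). Capitals mark the GC box GGGCGG or its reverse complement CCGCCC, searched on both strands.
CDKN1A: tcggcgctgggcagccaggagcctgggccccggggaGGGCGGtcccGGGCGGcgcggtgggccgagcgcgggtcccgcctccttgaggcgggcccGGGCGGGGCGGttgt
CDKN2B: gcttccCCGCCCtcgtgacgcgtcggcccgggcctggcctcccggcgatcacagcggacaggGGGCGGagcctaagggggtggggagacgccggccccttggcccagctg
The CDKN1A window holds 4 matches, of which the last 2 share a base, and the CDKN2B window holds 2. The motif occurs in 45.0% of 35116 RefSeq promoters, each taken from 250 bases before to 50 after the start, so a match is a description only and occupancy was not measured.

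CDKN2C, the inhibitor p18 and itself a known E2F target (chromosome 1, 50960745 to 50974633), was at 23.1, 15.2, 13.5, 17.4 and 17.5 CPM in stretch medium and at 19.3, 20.5, 17.5, 22.6 and 25.6 CPM in static medium. Apart from stretch 2, the stretch libraries lay below the lowest static library. The estimate was -0.29 on the log2 scale, interval -0.64 to 0.049 (edgeR, adjusted p = 0.382). CDKN2D, the inhibitor p19 (chromosome 19, 10566462 to 10569059), was at 8.15, 5.77, 7.70, 7.62 and 8.24 CPM in stretch medium and at 10.3, 10.3, 6.92, 5.35 and 4.87 CPM in static medium. Its means were almost equal, at 7.50 ± 1.0 CPM in stretch medium and 7.55 ± 2.62 CPM in static medium (SD, n = 5 each), and the static libraries were the more scattered. The log2 fold change of -0.0030 had an interval of -0.48 to 0.48 (edgeR, adjusted p = 0.995).

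CCND1, the D-type cyclin that partners CDK4 and CDK6 (chromosome 11, 69641087 to 69654474), was the most tightly measured member. It was at 1137, 1003, 1270.1, 1141 and 1034 CPM in stretch medium and at 947, 911, 1139, 912 and 1019 CPM in static medium. All 5 stretch libraries lay above the static median of 947 CPM, but static 5 and static 9 lay among them. The fold was 1.13, with an interval of 0.979 to 1.31 (edgeR, adjusted p = 0.383).

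RB1, the pocket protein that D-type cyclin kinases phosphorylate (chromosome 13, 48303726 to 48599436), had 72.6, 83.5, 54.9, 71.7 and 75.6 CPM in stretch medium, against 93.4, 77.1, 81.5, 103 and 75.2 CPM in static medium. Stretch 6 was the lowest and static 7 the highest library. Means were 71.7 ± 10.5 CPM in stretch medium and 86.0 ± 11.8 CPM in static medium (SD, n = 5 each), a log2 fold change of -0.27 with an interval of -0.54 to 0.0066 (edgeR, adjusted p = 0.315).

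LMNB1, which encodes lamin B1 of the nuclear lamina (chromosome 5, 126776623 to 126837020), had 14.0, 25.2, 16.6, 18.7 and 21.9 CPM in stretch medium. In static medium it had 14.5, 19.3, 25.2, 26.9 and 25.6 CPM. Values near 14 CPM were seen in stretch 2 and in static 1, and values above 25 CPM in stretch 4 and in static 5, 7 and 9, so both media held low and high libraries. The fitted log2 change was -0.22 (interval -0.62 to 0.18, edgeR adjusted p = 0.598). It was -0.33 without static 1 or without stretch 4, and from -0.14 to -0.13 without static 7 or stretch 2. In bulk RNA, a lower level per cell and fewer cells with the transcript cannot be told apart, here and for the other members.

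**Figure D2:**
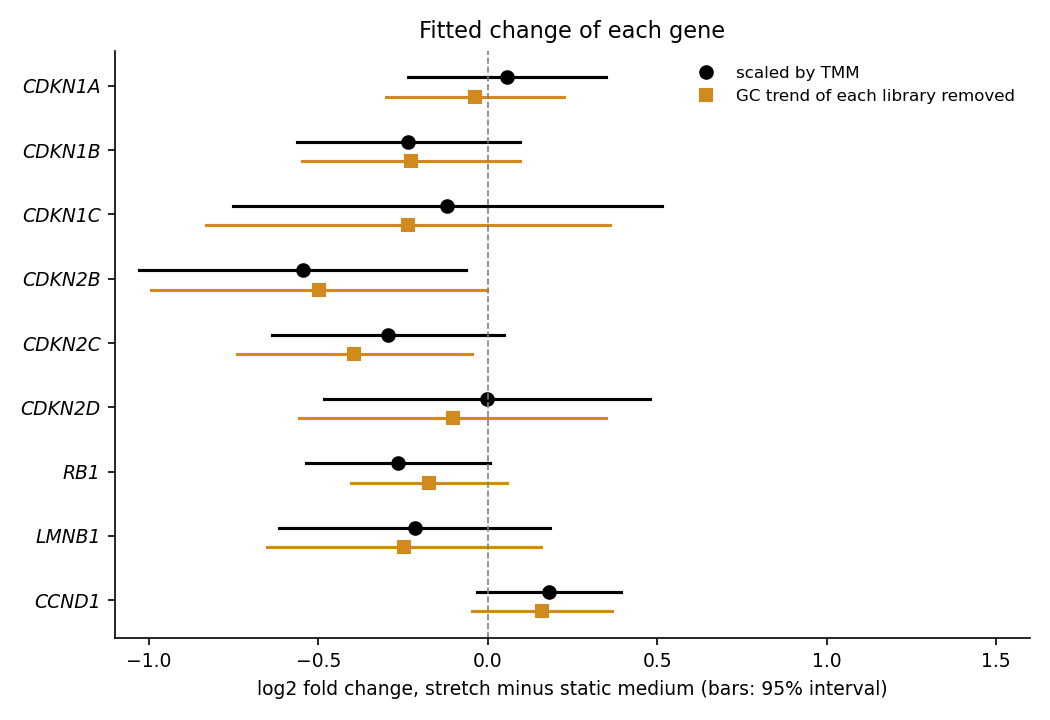
Fitted log2 fold change, stretch minus static medium, with its 95% interval for each gene. Black circles are the TMM-scaled fit and orange squares the fit with each library's GC trend removed. CDKN2B lies farthest from 0, at -0.55 and -0.50, and CDKN1A is at 0.058 and -0.037.

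Libraries differed in how level varied with the GC content of the transcript, in both media, and a difference between the media did not pass the test. With genes cut into 5 equal classes by GC content, the median log2 fold change was 0.10 in the class with the highest GC and -0.089 in the class with the lowest. The gap between these classes within a library was 0.11, -0.11, 0.33, 0.090 and 0.068 (log2) in stretch libraries 2, 4, 6, 8 and 10, and -0.077, 0.049, -0.12, -0.27 and -0.064 in static libraries 1, 3, 5, 7 and 9. Stretch 6 and static 7 were the extremes, and the groups overlapped (exact permutation test, two-sided p = 0.0556, where 0.00794 is the smallest p possible). With each library's trend removed, edgeR called 1 gene over all and 0 of the 9 members. CDKN2B, with 44.6% GC, was then at -0.50 on the log2 scale (-0.99 to -0.0026, edgeR adjusted p = 0.335), and RB1, with 37.3% GC, of -0.17 (-0.40 to 0.058). CDKN2C, with 58.1% GC, moved further from 0, to -0.39 (-0.74 to -0.047, adjusted p = 0.279). CDKN1A, also at 58.1% GC, changed sign to -0.037.

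**Figure D3:**
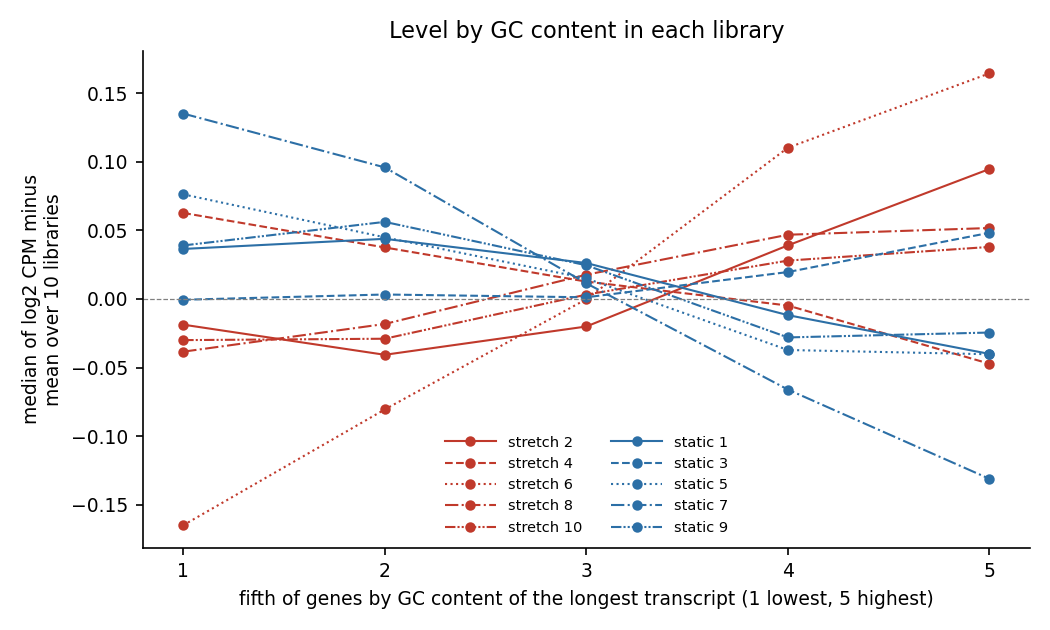
Median log2 CPM, centred on the mean over 10 libraries, of genes in 5 equal classes of GC content, with 1 line per library (stretch medium red, static medium blue). Stretch 6 runs from -0.17 to 0.16 and static 7 from 0.14 to -0.13 from the lowest to the highest GC class, in opposite directions.

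The other genes of the pathway were read from 8 lists of 127 genes, of which 119 were tested. In edgeR, 0 of the 119 passed an adjusted p of 0.05, and 24 had an unadjusted p under 0.05 (20.2%, against 16.4% of all genes), 14 above and 10 below static medium. The median log2 fold change over the 119 was 0.0017. From each list, genes are named from the 3 with the smallest p-values.

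Upstream of RB, of 12 G1 cyclins and kinases, 6 lay above and 6 below 0, with a median of -0.0083. CDK7 and cyclin H (CCNH), subunits of the CDK-activating kinase, had the smallest p-values of this list. MNAT1, a further subunit of this kinase named outside the rule, was at -0.077 (edgeR, adjusted p = 0.825). CDK7 was at 53.3 ± 3.66 CPM in stretch medium and 68.6 ± 9.99 CPM in static medium (SD, n = 5 each), a log2 fold change of -0.36, and CCNH at 14.3 ± 3.70 CPM in stretch medium and 21.2 ± 4.76 CPM in static medium, or -0.57 (edgeR, adjusted p = 0.164 and 0.168). CCND2, a D-type cyclin, was at -0.27 (adjusted p = 0.454). CDK7 and CCNH have low GC content (40.7% and 35.2%), and with the GC trend removed they were at -0.28 and -0.47.

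Among 17 pocket protein, E2F and DREAM genes, the median was -0.055, and 7 lay above 0. E2F1, an activator E2F, averaged 40.4 ± 5.88 CPM in stretch medium and 29.7 ± 6.71 CPM in static medium, or 0.45 (0.11 to 0.78, edgeR adjusted p = 0.184). E2F7, an atypical repressor of E2F targets, averaged 32.5 ± 2.84 CPM in stretch medium and 42.0 ± 6.20 CPM in static medium, or -0.37 (-0.64 to -0.097, adjusted p = 0.177). E2F4, which acts mainly in repressive complexes, was at 0.35 (adjusted p = 0.262). None of the 3 passed the threshold, and the groups overlapped for each. After removal of the GC trend, E2F1 was at 0.35, E2F7 at -0.30 and E2F4 at 0.24 (-0.074 to 0.56).

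Genes of inhibitor turnover had a median of 0.0073 over 12. SKP2, the F-box protein that marks p27 for degradation, was at -0.35 (29.8 ± 4.03 CPM in stretch medium, 38.0 ± 6.93 CPM in static medium). COPS5, a signalosome subunit that lowers p27, was at -0.27, and its groups did not overlap. UHMK1, a kinase that phosphorylates p27, was at 0.22 (adjusted p from 0.259 to 0.316 for the 3 genes in edgeR). With the GC trend removed, COPS5 was at -0.18 (-0.43 to 0.073) and SKP2 at -0.26, while UHMK1 moved further from 0, to 0.32. The 9 genes of the p53 pathway upstream of CDKN1A had a median of -0.13, with 3 above and 6 below 0. The p53 and MDM2 deubiquitinase USP7 was at -0.19 and the damage kinase ATM at -0.41, with intervals that spanned 0.

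Of 13 Polycomb genes and other regulators of the INK4 locus (median 0.041), 3 had an unadjusted p under 0.05 and were above 0 (23.1%, against 8.08% of all genes on that side). They were KDM2B, a histone demethylase of a variant Polycomb complex (0.41, edgeR adjusted p = 0.169), the transcription factor ETS2, a known activator of p16 (0.31, 0.213), and SUZ12, of the PRC2 methyltransferase (0.37, 0.276). Of 11 FOXO and SMAD regulators of CDKN1B and CDKN2B (median 0.14), 9 lay above 0. AKT2, a kinase that inhibits FOXO factors, averaged 124 ± 14.7 CPM in stretch medium and 96.7 ± 10.3 CPM in static medium, or 0.36 (adjusted p = 0.147). ZBTB17, the factor MIZ1 through which MYC is known to repress CDKN2B, was at 0.32 (adjusted p = 0.212), and SMAD2 at -0.23 (adjusted p = 0.357). After removal of the GC trend, KDM2B was at 0.30, AKT2 at 0.26, ZBTB17 at 0.21 (-0.051 to 0.48) and SMAD2 at -0.14. ETS2 stayed at 0.31, and SUZ12 moved further from 0, to 0.45. The median of the FOXO and SMAD list was then 0.091.

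Among 19 lamina and chromatin genes used as senescence markers, 12 lay below 0, with a median of -0.095. The list mixes markers known to be lost in senescence with others known to rise, so this count and median give no senescence direction. An unadjusted edgeR p under 0.05 was seen for 3 genes below 0 and 1 above. The latter was GLB1, a beta-galactosidase gene named outside the rule (0.22, edgeR adjusted p = 0.294). EMD, the lamina-binding protein emerin, was at 50.5, 75.6, 73.6, 59.6 and 64.9 CPM in stretch medium and at 80.0, 79.6, 93.0, 96.7 and 98.4 CPM in static medium, without overlap. Its log2 fold change was -0.46 ± 0.12, with an adjusted p of 0.119 in edgeR, 0.0276 in DESeq2 and 0.126 in limma-voom. HMGB2, a chromatin protein lost in senescent fibroblasts, averaged 264 ± 22.0 CPM in stretch medium and 351 ± 90.8 CPM in static medium (-0.41, edgeR adjusted p = 0.179), with static 7 highest at 499 CPM. The histone chaperone ASF1A was at -0.29 (adjusted p = 0.213), and at -0.17 with the GC trend removed.

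**Figure D4:**
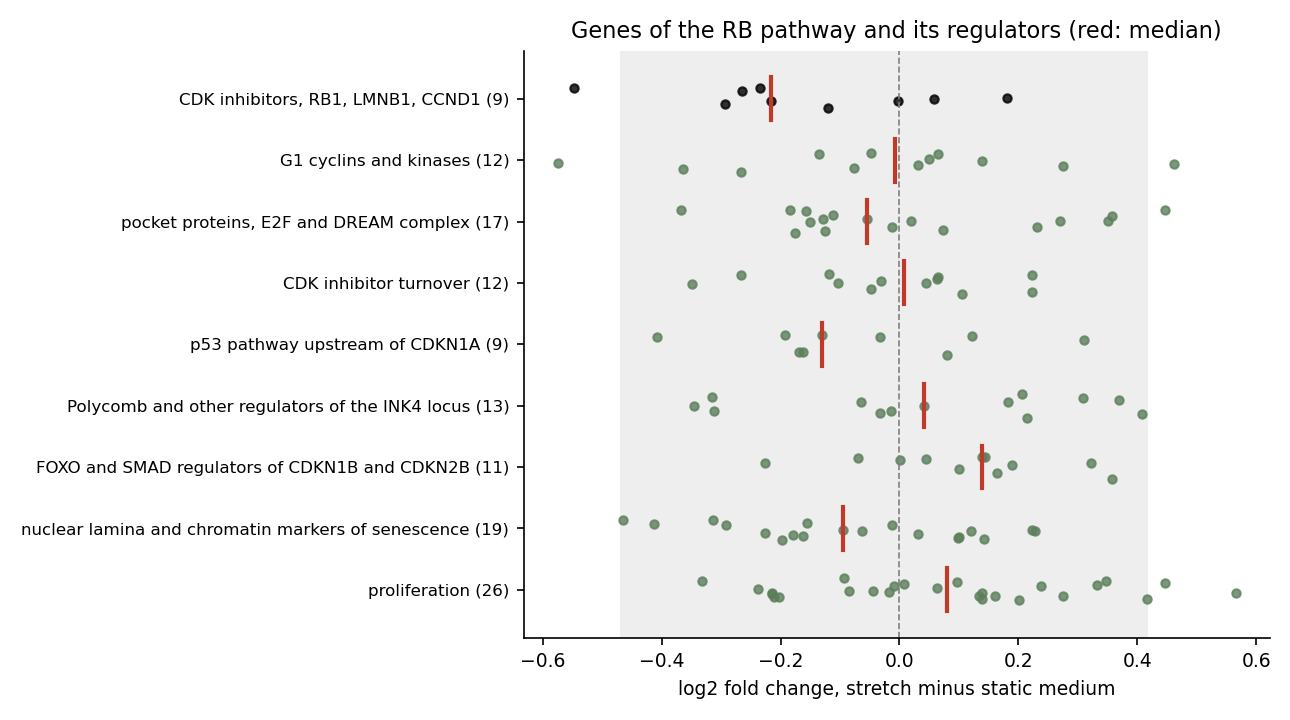
Log2 fold change, stretch minus static medium, of the 9 members (black) and of the tested genes of 8 lists (green), with each list's median in red. The grey band holds the 5th to 95th percentile of all genes tested, -0.47 to 0.42, and most points lie inside it.

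Proliferation genes were set against the members because several members are E2F targets or mark arrest. The 26 genes had a median log2 fold change of 0.080 and 15 lay above 0. The MCM helicase subunit gene MCM5 was at 30.8 ± 4.12 CPM in stretch medium and 20.8 ± 4.46 CPM in static medium (0.57, adjusted p = 0.129 in edgeR and 0.0372 in DESeq2) and its groups did not overlap. MCM4 was at 0.42 (edgeR adjusted p = 0.166) and MCM3 at 0.33 (0.181). On the lower side, the spindle assembly factor gene TPX2, named after its values were seen, was at 141 ± 9.02 CPM in stretch medium and 164 ± 10.7 CPM in static medium, without overlap (-0.21, edgeR adjusted p = 0.277). The mean log2 CPM of the list lay between 5.86 and 5.98 in stretch medium and between 5.75 and 5.98 in static medium, a narrow range.

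Over the 10 libraries, CDKN2B was the 1 member of 9 whose level was related to this mean after adjustment. The share of all genes with such a relation was not computed, so this count has no background beside it. Pearson's r was -0.85 (permutation p = 0.0024, adjusted p = 0.0216) and Spearman's rho -0.82 (permutation p = 0.0056, adjusted p = 0.0504). Static 3 had the most CDKN2B and the lowest mean, and static 7 and stretch 8 little CDKN2B and the highest means. Static 7 was also an extreme of the GC trend, with a gap of -0.27. Without static 3 and static 7, the libraries farthest from the median, r was -0.70. With group means subtracted r was -0.79 (adjusted p = 0.0450), and -0.35 when the 2 farthest libraries were also left out, so the relation within media rests largely on them. The permutation moved the centred values freely across media without allowing for the removed means. Adjusted p-values with group means subtracted therefore tend to be too small. Without that subtraction, the adjusted p rose above 0.05 when stretch 2 (0.0513), static 3 (0.0909), static 7 (0.0709) or stretch 8 (0.0778) was left out. The relation was then no longer called. Set against MKI67 alone, a marker of cycling cells, r was 0.045, so the relation did not extend to that gene. With 5 libraries a medium, r within a medium is not given.

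For the other members, r with the proliferation mean ran from -0.52 for CDKN1C to 0.23 for RB1, with adjusted p of at least 0.388. LMNB1, a known E2F target, had an r of 0.095, and -0.68 against MKI67 alone (permutation p = 0.0356, adjusted p = 0.20). With group means subtracted, RB1 had an r of 0.76 (adjusted p = 0.0450, which tends to be too small as above), and 0.73 without static 7 and static 3. For CDKN1A these values were -0.70 (permutation test, adjusted p = 0.0700) and -0.18, and for CDKN1C -0.51 (adjusted p = 0.284) and -0.72. Without that subtraction, CDKN1C was at -0.77 when static 3 and static 7 were left out, beside -0.70 for CDKN2B. CDKN1A was then at -0.084 and CDKN2D at 0.28.

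Among the 36 pairs of members, a comparison added after the data were seen, 4 had an unadjusted permutation p under 0.05 for Pearson's r and 0 passed after adjustment. RB1 and CCND1 had an r of -0.80 and a rho of -0.76 (permutation p = 0.00438 and 0.0154, adjusted p = 0.156 and 0.184), and an r of -0.51 without stretch 6 and static 7. CDKN1A and LMNB1 had an r of -0.75 and a rho of -0.77 (permutation p = 0.0112 and 0.0123, adjusted p = 0.156 and 0.184). In that pair, r was -0.84 without static 7 and stretch 10, and -0.66 with the GC trend removed. CDKN2D and LMNB1 had an r of -0.76 and a rho of -0.76 (adjusted p = 0.156 and 0.184). Low LMNB1 with high CDKN1A was thus seen in stretch 2 and 6 and, in static medium, in static 1 only, without passing adjustment over the pairs. Static 3, with CDKN1A at 1063 CPM, had LMNB1 at 19.3 CPM, above stretch 6 (16.6 CPM) and stretch 8 (18.7 CPM).

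**Figure D5:**
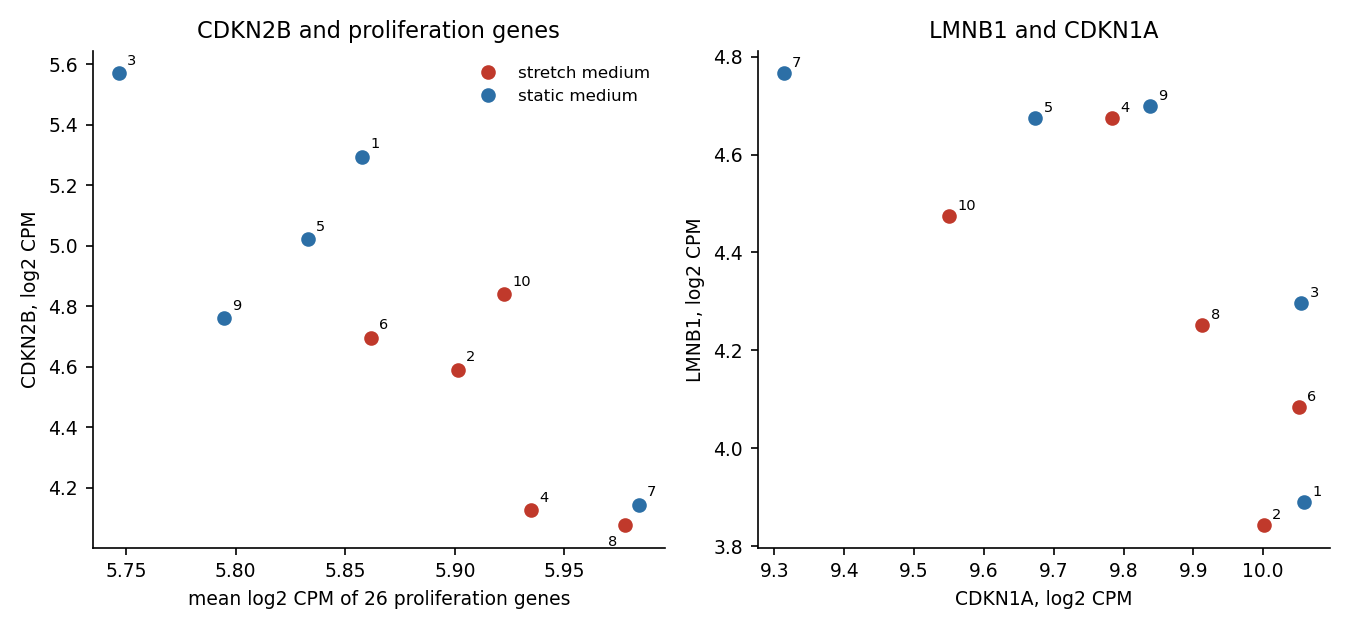
Left, CDKN2B against the mean log2 CPM of 26 proliferation genes, and right, LMNB1 against CDKN1A, in log2 CPM, with 1 point per library (stretch medium red, static medium blue) and its title number. CDKN2B lies lower where the proliferation mean is higher (r = -0.85), and LMNB1 lower where CDKN1A is higher (r = -0.75).

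Genes with a pattern most like 3 of the members were ranked by Pearson's r of log2 CPM over the 10 libraries, as a description, since the highest of 10968 values is high by selection. CDKN1A was followed most closely by IFT122 (r = 0.93, rho = 0.92), STARD10 (0.92 and 0.88) and the transcription factor gene TBX3 (0.91 and 0.81). CCND1 was followed by MEPCE (0.96 and 0.94), UPF1 (0.95 and 0.98) and NDEL1 (0.95 and 0.90). LMNB1 was followed by TXLNB (0.95 and 0.93) and MAN1B1 (0.94 and 0.90), which average under 2.3 CPM in either medium, and by MED6 (0.93 and 0.95). None of the 9 passed the threshold between media, with edgeR adjusted p from 0.204 to 0.933.

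As a check of the cells, the 10 fibroblast markers summed to 11901 to 15485 CPM in stretch medium and 13687 to 15584 CPM in static medium. Of 16 A549 and lung epithelium markers, 10 had a row and summed to 44.4 to 53.9 CPM in stretch medium and 40.4 to 50.8 CPM in static medium. CDH1 had 0 to 4 reads a library and EPCAM 11 to 25, but KRT18 had 49 to 128, KRT19 53 to 109 and CLDN4 26 to 73. KRT18 averaged 14.6 CPM in stretch medium and 11.2 CPM in static medium (log2 fold change 0.40, edgeR adjusted p = 0.276). Library totals were 4231653 to 8455073 counts, and 3 reads equal 0.354 to 0.679 CPM. Totals did not separate the media (exact permutation, two-sided p = 0.444). Strand use is not stated, so reads of overlapping genes may be mixed: CDKN1A overlaps DINOL, CCND1 overlaps LTO1, RB1 overlaps RCBTB2 and LPAR6, and CDKN2B overlaps CDKN2B-AS1, each on the opposite strand. The same holds for CCNH with RASA1, COPS5 with CSPP1, KDM2B with RNF34 and ASF1A with MCM9.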

How the data were processed

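Counts of RNA from 10 MRC5 libraries were analysed. Per the labels' protocols, RNA was taken with Trizol and libraries were made with an Ion AmpliSeq transcriptome kit, which amplifies short targets by PCR; molecular identifiers are not mentioned, so the floor of 3 reads covers counting error only. The submitters' processing notes name fastp 0.20.1, Salmon 1.9 and GRCh38, without roles. The deposited values are whole-number counts per Ensembl gene, unscaled, and every gene is above 0 in at least 5 libraries. Columns were matched to samples by the number in the sample title. The groups share no number, so no pairing was used.

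Genes were kept by filterByExpr (minimum count 10, total 15), scaled by TMM and tested by edgeR 4.0.16 (quasi-likelihood, R 4.3.3) with Benjamini-Hochberg adjustment over 10968 genes and a threshold of 0.05. Fold changes are stretch over static, without shrinkage, with 95% intervals that rest on the spread between libraries. log2 CPM use a prior count of 2. DESeq2 1.42.0 and limma 3.58.1 were alternatives, with other scalings, filters, a threshold of 0.1, the title number as covariate and each library left out. Correlations used 100000 permutations. Removal of a lowess trend of log2 CPM on GC content (longest transcript, GENCODE 29, 98.8% of genes) was added after seeing the data. The fits were tested on simulated data. Named were the members, the 3 smallest p-values of each list, and the 3 genes most like CDKN1A, CCND1 and LMNB1. Members and lists were chosen with earlier results of these data known. Some items that this rule takes are not reported here.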

Additional observations from a re-analysis of the deposited data

Results flagged for a closer look

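In stretch 4, CDKN2D was at 5.77 CPM, below the other stretch libraries, which lay between 7.62 and 8.24 CPM. In static 5, CCNH was at 29.5 CPM, above the other static libraries at 17.9 to 20.2 CPM. Both were picked out by Dixon's test at the 95% level as a single library far from the other 4 of its medium. Chance gives about 1 such case in 20 groups, and 66 groups of 5 values were examined, so 2 is not above that rate.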

How the results depend on the processing

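Called genes over the whole table numbered 0 in edgeR, 275 in DESeq2, 1 in limma-voom, 61 at a threshold of 0.1, 1 with the GC trend removed (an alternative chosen after seeing the data), and 0 to 39 with a library left out, the most without stretch 4. Members called were 0 under every alternative run; pathway list genes called were 0 except in DESeq2, with 2 (EMD and MCM5), and 0 to 0 with a library left out. Members related to the proliferation mean numbered 1, or 2 with group means subtracted, 0 against MKI67 alone, and 0 to 1 with a library left out. The count of 2 rests on adjusted p-values that tend to be too small. Of 33 genes followed, log2 fold changes turned sign for CDKN2D in limma-voom (0.061) and with the title number as a covariate (0.11) and for CDKN1A with the GC trend removed (-0.037). With a library left out, CDKN1A ran from -0.044 to 0.13, CDKN1C from -0.39 to 0.067 and CDKN2D from -0.12 to 0.15. The r with the proliferation mean turned sign with group means subtracted for CDKN2C (0.11) and CCND1 (-0.29), and against MKI67 alone for CDKN1A (0.54), CDKN2B (0.045), CDKN2D (0.65), RB1 (-0.51) and LMNB1 (-0.68). With a library left out it ran from -0.42 to 0.013 for CDKN2C, -0.66 to 0.0012 for CDKN2D, -0.063 to 0.34 for RB1, -0.12 to 0.27 for LMNB1 and -0.22 to 0.40 for CCND1. The causes were not tested. No paired analysis was possible because the groups share no replicate number. CDKN1C and CDKN2D had the fewest reads of the members, 14 to 87 a library, and the part of depth in their intervals was not tested.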

Other observations

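Of the 6 subunits of the MCM2-7 replicative helicase, picked after their values were seen, all but MCM6 lay above 0. Log2 fold changes in edgeR were 0.45 for MCM2 (adjusted p = 0.356), 0.33 for MCM3, 0.42 for MCM4, 0.57 for MCM5, -0.018 for MCM6 (adjusted p = 0.954) and 0.24 for MCM7 (adjusted p = 0.344), and none passed the threshold. RRM2, a subunit of ribonucleotide reductase, was at -0.33 (adjusted p = 0.261), and TYMS, thymidylate synthase, at 0.063 (adjusted p = 0.782). MKI67 averaged 57.8 ± 5.25 CPM in stretch medium and 45.4 ± 7.26 CPM in static medium (SD, n = 5 each; adjusted p = 0.196).

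The vimentin gene VIM was at 1580 CPM in stretch 2, against 4091 to 4328 CPM in the other stretch libraries and 4057 to 5073 CPM in static medium.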
